A study of Mus musculus with 165 samples.

Results

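The GCSF pre-treatment is the step of the neutrophil protocol that precedes PU.1 activation, and it was described here from the 6 libraries collected around it before any OHT was added, which are 2 of the 56 groups of condition and time in the series. The libraries were taken by their labels. They are 3 libraries of undifferentiated PUER cells kept in IL3 with no OHT, and 3 libraries of PUER cells at 0h after 48 h in GCSF with no IL3 and no OHT, called GCSF 0h below. PUER is a mouse blood progenitor line that needs IL3 to grow. It lacks the cell's own PU.1 (PU.1-/-), as do all groups of the series, and in its place carries PU.1, the product of *Spi1*, joined to the part of the estrogen receptor that binds hormone. The fusion is inactive until 4-hydroxy-tamoxifen (OHT) binds it, so both groups were measured without active PU.1. Undifferentiated cells grew in medium with 5 ng/ml IL3. For the pre-treatment, expanded cells were washed in PBS and plated in the same medium with 10 ng/ml GCSF in place of IL3. A further 6 libraries served as a second comparison that shares no library with the first: IL3-OHT 1h (5 ng/ml IL3, 200 nM OHT for 1 h) and GCSF-OHT 1h (48 h of GCSF, then 100 nM OHT in 10 ng/ml GCSF for 1 h), 3 libraries each.

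The contrast between GCSF 0h and undifferentiated cells holds the loss of IL3, the gain of GCSF, the washes and 48 h in a plate together, and these cannot be told apart. Cells of each time point were plated in a dedicated plate, so plate and group cannot be told apart either. The labels give the undifferentiated libraries as the start of both differentiations. The titles of the GCSF 0h libraries carry the word OHT, while their descriptions place them before it. PUER is a single line, and the replicates are separate samples of that line.

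IL3 and GCSF act through different receptors. The IL3 receptor pairs an alpha chain, *Il3ra*, with a common beta chain, *Csf2rb*, or in the mouse the IL3-specific beta chain *Csf2rb2*, and signals through JAK2 to STAT5 and through RAS to ERK. The GCSF receptor, *Csf3r*, is a homodimer that signals through JAK kinases mainly to STAT3, and also to STAT5. Genes such as *Cish*, *Socs1*, *Socs2*, *Osm* and *Pim1* are textbook STAT5 targets in hematopoietic cells, while *Socs3* and *Cebpd* are induced by STAT3. GCSF drives granulopoiesis *in vivo*, in which promyelocytes make primary granule proteins first and later cells make secondary granule proteins.

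Values are normalized counts, that is reads on a gene divided by a size factor of the library, and they compare a gene between libraries but not genes with each other. The 6 libraries held between 17754586 and 22781440 reads on genes, and a floor of 3 reads came to between 2.66 and 3.93 normalized counts. Replicates of a group correlated at 0.979 or more across genes on the log2 scale, and no pair of libraries differed by as little as sampling noise. Log2 fold changes are GCSF 0h over undifferentiated on the scale of log2(normalized count + 1), and are given as value ± standard error. The adjusted p-values are limma's with Benjamini-Hochberg correction over the 17414 genes tested. Genes with an adjusted p below 0.05 and a log2 fold change beyond 0.58 in either direction were called differentially expressed genes (DEGs). Where 2 sets of 3 values stand side by side, those of the undifferentiated libraries come first. In bulk RNA a lower value can come from fewer cells that express a gene or from less RNA per cell, and these cannot be told apart.

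Between GCSF 0h and undifferentiated cells 5861 of the 17414 genes, or 33.7%, were called. In GCSF 0h 2261 genes (13.0%) were higher and 3600 genes (20.7%) were lower than in undifferentiated cells. In this fit more genes had large changes in the downward direction. The log2 fold change was above 1 for 1115 higher genes and below -1 for 2587 lower genes, and it passed 3 in size for 24 higher and 309 lower genes. The excess of lower genes was smaller under other settings. Among genes with a mean of at least 10 there were 2101 higher and 2542 lower, and edgeR called 2317 higher and 2677 lower. The counts by size were not repeated under these settings. The median over all genes tested was -0.09. The shares of 13.0% and 20.7% are the background for each list of genes described below. The lists were drawn up with results of these data known, so their counts are descriptions.

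**Figure D1:**
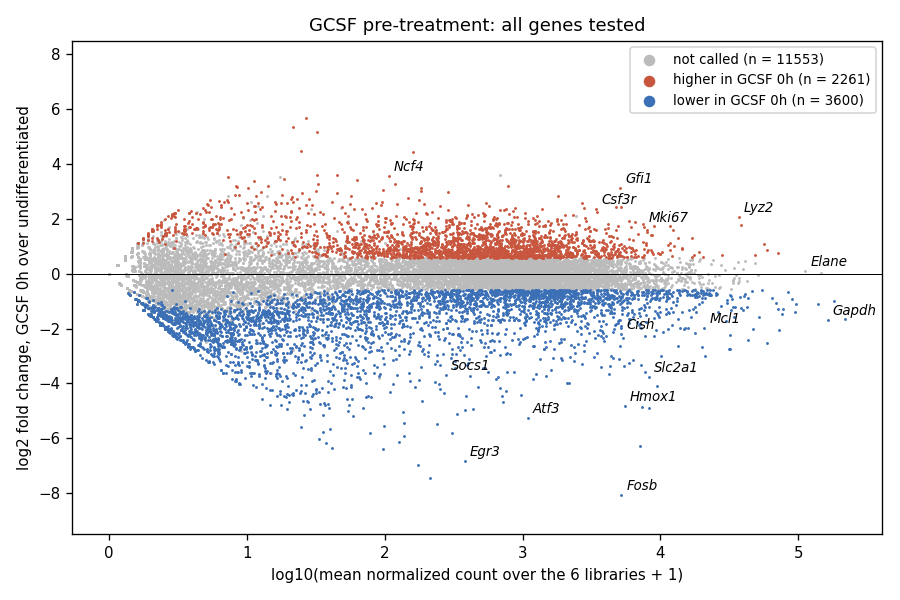
Log2 fold change of each gene tested (GCSF 0h over undifferentiated, vertical axis) against its mean normalized count over the 6 libraries (horizontal axis, log10 of the mean + 1). Red points are the 2261 genes called higher in GCSF 0h, blue points the 3600 called lower, and grey points were not called. *Fosb* has the lowest value named, -8.05, and the lower genes reach further from 0 than the higher ones.

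**Figure D2:**
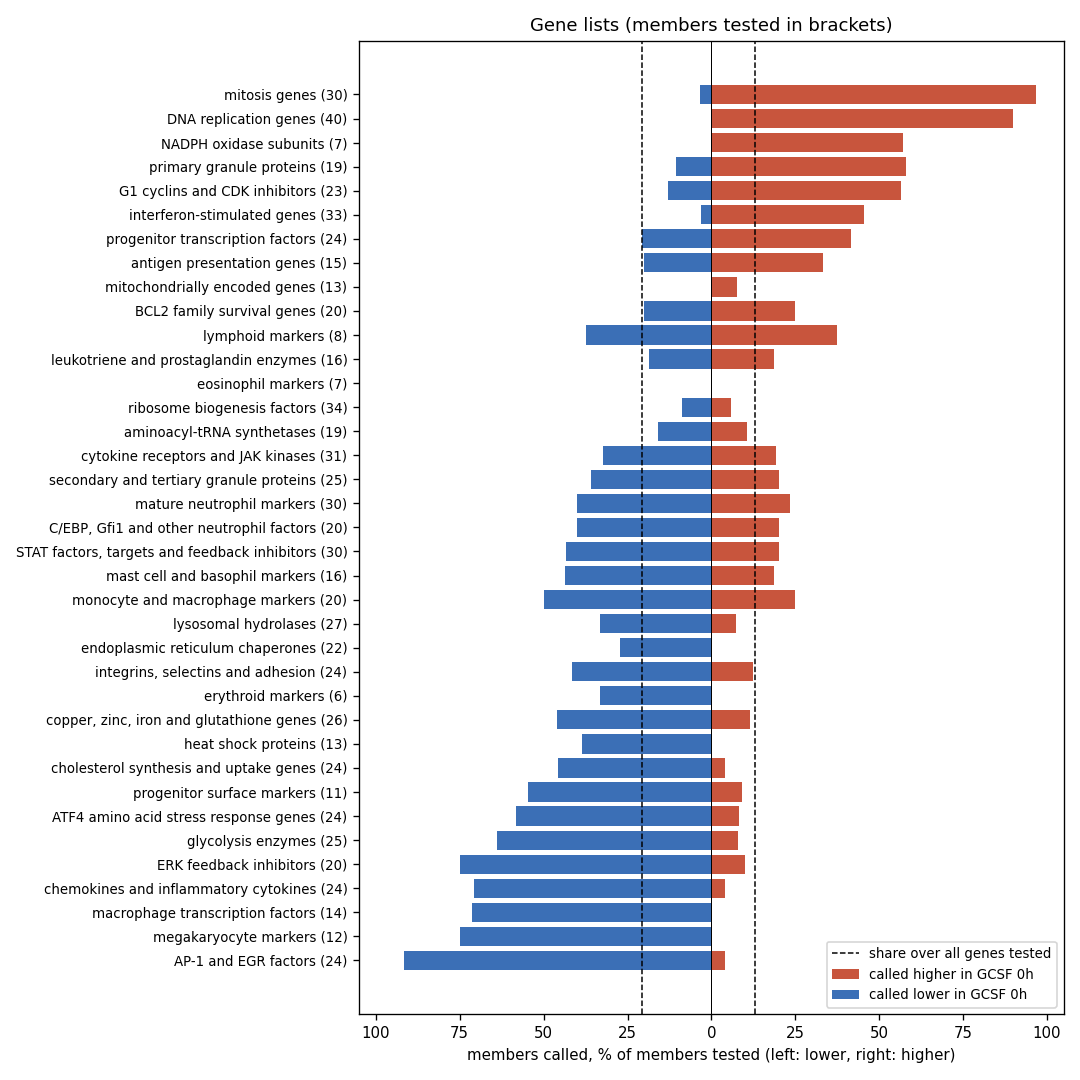
Share of the tested members of each gene list that were called higher (red, to the right) or lower (blue, to the left) in GCSF 0h, with the number tested in brackets. Dashed lines mark the shares over all genes tested, 13.0% higher and 20.7% lower. Mitosis and DNA replication genes stand at the top and AP-1 and EGR factors at the bottom.

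Transcripts of the GCSF receptor rose, and those of the IL3 receptor were not called. *Csf3r*, the GCSF receptor at chr4:126024550-126044440 (GRCm38), had 1022, 1173 and 1103 normalized counts in the undifferentiated libraries and 5266, 6039.9 and 5847 in the GCSF 0h libraries. Each GCSF 0h library was above each undifferentiated library, and the log2 fold change was 2.38 ± 0.06 (limma adjusted p = 7.42e-63). *Il3ra*, the IL3 receptor alpha chain, had 1268, 1237 and 1124 in undifferentiated cells and 981, 900.4 and 1007 in GCSF 0h, and at -0.33 ± 0.13 it was not called. The beta chains were not called either, at 0.35 ± 0.04 for *Csf2rb* and 0.12 ± 0.05 for *Csf2rb2*, a pair whose sequences are so alike that reads may be divided between them. Cells that had been without IL3 for 48 h thus still held the transcripts of its receptor. *Kit*, the stem cell factor receptor, was not called either, with 4186, 3995 and 3978 against 3744, 3625 and 3647 (-0.14 ± 0.06).

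Of the 31 cytokine receptors and JAK kinases tested, 6 rose and 10 fell. Among those that rose were *Ifngr1*, the ligand-binding chain of the interferon-gamma receptor (4154 ± 54.3 to 13775 ± 654, mean ± SD, n = 3 for both), and *Il1r2*, the decoy receptor of IL1 (66.3 ± 4.71 to 138.1 ± 13.8). *Ptpn6*, which encodes the phosphatase SHP-1 that damps cytokine signals, rose (1.23 ± 0.07). *Il4ra* fell from 4284 ± 243 to 1383 ± 83.96, and *Ifngr2*, the second chain of the interferon-gamma receptor, moved against its partner, from 495 ± 27.3 to 222 ± 14.6. *Flt3* was low throughout, with 36.6, 29.7 and 31.9 in undifferentiated cells and 14.8, 10.6 and 1.86 in GCSF 0h (-2.06 ± 0.60, adjusted p = 0.00197), and without GCSF 0h replicate 3 it was not called (-1.31). *Il6st*, the chain used by the IL6 family, was listed at 0 in 5 of the 6 libraries and at 0.932 in the other. It came to no more than 3.28 in any library of the series, although most cells express it. A value at 0 is therefore given below only as listed at 0. *Ptprc*, which encodes CD45 of leukocytes, was listed at no more than 4.73 in any of the 6 libraries. It was called lower near the floor (-1.63 ± 0.25), though not by DESeq2, and reached 1057 in another library of the series.

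Targets and feedback inhibitors of STAT factors parted. Of 30 members tested, 6 rose and 13 fell, with a median of -0.37. *Cish*, an inhibitor of STAT5 signaling at chr9:107296026-107302784, had 8775, 8538 and 8283 in undifferentiated cells and 2062, 1785 and 1726 in GCSF 0h (-2.20 ± 0.08, adjusted p = 4.10e-50). *Socs1*, the inhibitor of JAK kinases, had 543, 509 and 499.9 against 38.8, 38.1 and 39.1, a 13.4-fold fall (-3.71 ± 0.18). *Osm*, the cytokine oncostatin M, went from 1333, 1304 and 1236 to 67.5, 68.2 and 80.1 (-4.15 ± 0.13). No GCSF 0h value of these 3 genes reached the lowest undifferentiated value. *Socs2* fell as well (-1.60 ± 0.08). *Socs3*, the inhibitor that binds the GCSF receptor, also fell, from 17393, 16694 and 17219 to 9831, 9148 and 8820.2 (-0.89 ± 0.08). *Ccnd2*, the G1 cyclin D2, fell by a similar size to *Socs2* (-1.40 ± 0.05).

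Other members of the list rose or were not called. *Cebpd* had 895, 771 and 919 in undifferentiated cells and 3538, 3857 and 3942 in GCSF 0h (2.13 ± 0.10, adjusted p = 4.91e-41). The factor *Stat5a* rose (1.16 ± 0.08), and each GCSF 0h value was above each undifferentiated value. *Stat4* rose at a level of at most 27.4 normalized counts (1.19 ± 0.40), and without undifferentiated replicate 1 it was not called (1.00). *Pim1* (0.40 ± 0.08), *Bcl6* (0.39 ± 0.09) and *Myc* (-0.20 ± 0.07) were not called, although the values of each did not overlap between groups. That holds little weight on its own, since 27.5% of all genes tested had every GCSF 0h value above every undifferentiated value and 34.6% had every value below.

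**Figure D3:**
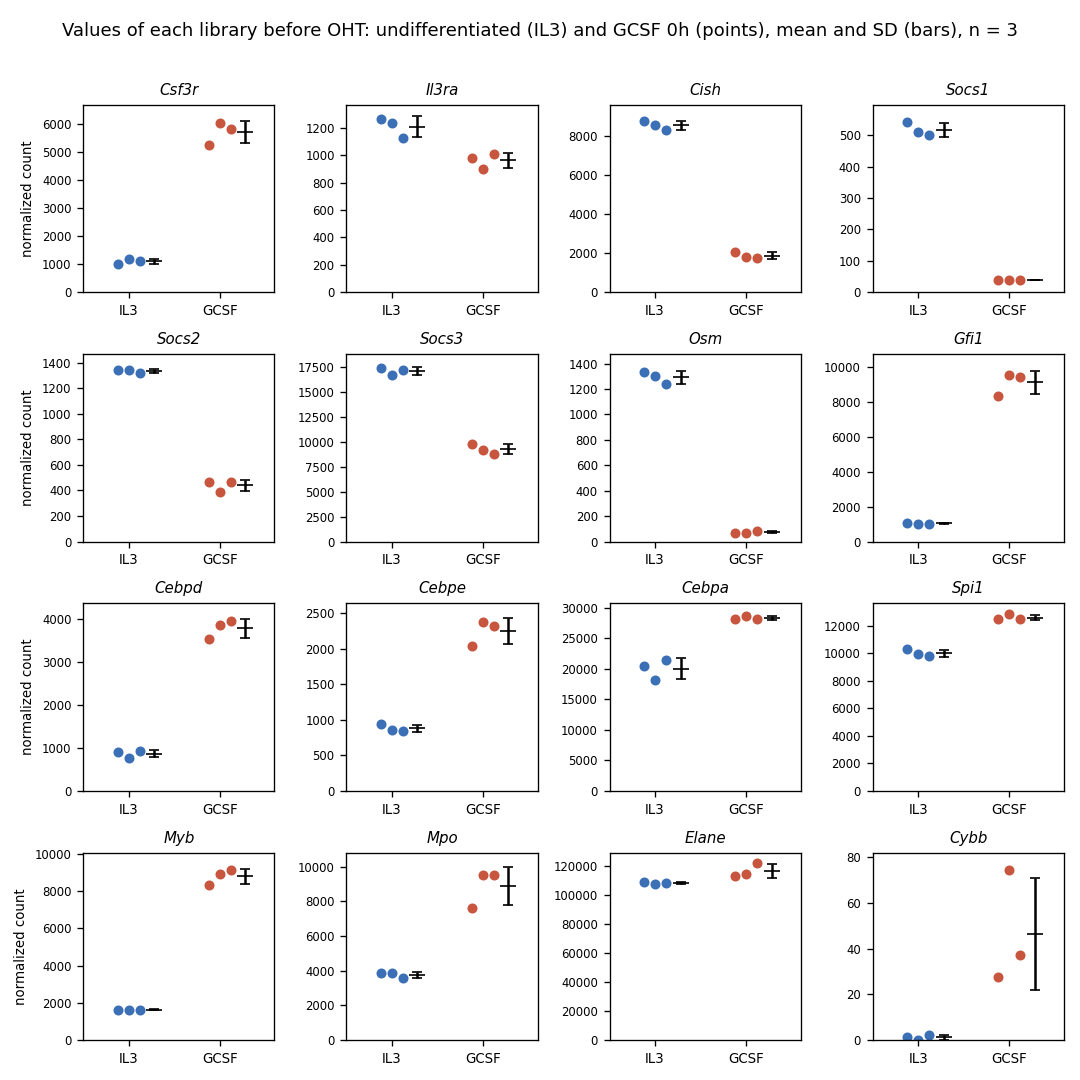
Normalized counts of 16 genes in each of the 3 undifferentiated libraries (IL3, blue points) and the 3 GCSF 0h libraries (GCSF, red points), with the mean and SD in black, each panel from 0. *Csf3r*, *Gfi1*, *Cebpd*, *Cebpe*, *Myb*, *Mpo* and *Cybb* are higher in every GCSF 0h library, *Cish*, *Socs1*, *Socs2*, *Socs3* and *Osm* lower, and *Il3ra*, *Cebpa*, *Spi1* and *Elane* were not called.

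The letters of 2 motifs were looked for in the RefSeq promoters of the STAT and granule lists, of 56 genes on the GRCm38.p6 build, within 250 bases before to 50 after the start site. The palindrome TTCNNNGAA is bound by STAT dimers, TTNCGNAA holds the core bound by C/EBP dimers, and both read the same on either strand. A base can belong to a match of both. Among all 32851 promoters of that table, 8.30% held TTCNNNGAA and 2.47% held TTNCGNAA, and among the 14706 promoters of genes tested the shares were 7.05% and 3.46%. The share with TTCNNNGAA was 8.22% over promoters of genes called higher and 6.51% over those called lower. For TTNCGNAA these shares were 3.95% and 2.39%. Among the 32 called members with a promoter in that table, TTCNNNGAA was found at *Cish*, *Socs3*, *Ctsg* and *Nkg7*. Other called members, among them *Socs2*, *Osm* and *Cebpd*, had no promoter there and were not searched. Their sequences are printed 5′ to 3′ on the gene's strand with the matches in capitals, since they show the members of both directions side by side: *Cish* (chr9:107296409-107296678, plus strand) and *Socs3* (chr11:117969367-117969616, minus strand) fell, and *Ctsg* (chr14:56102575-56102824, minus strand) and *Nkg7* (chr7:43436888-43437137, plus strand) rose.
Cish: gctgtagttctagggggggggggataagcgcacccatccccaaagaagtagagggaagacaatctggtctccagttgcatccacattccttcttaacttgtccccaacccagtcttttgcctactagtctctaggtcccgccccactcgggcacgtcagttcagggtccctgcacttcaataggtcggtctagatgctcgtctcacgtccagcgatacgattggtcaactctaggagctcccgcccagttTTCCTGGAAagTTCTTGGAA
Socs3: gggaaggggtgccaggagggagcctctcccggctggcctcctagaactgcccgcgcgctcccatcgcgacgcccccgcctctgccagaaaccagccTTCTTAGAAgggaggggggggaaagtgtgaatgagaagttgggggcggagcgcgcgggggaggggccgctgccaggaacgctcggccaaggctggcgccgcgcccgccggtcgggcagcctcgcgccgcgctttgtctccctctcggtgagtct
Ctsg: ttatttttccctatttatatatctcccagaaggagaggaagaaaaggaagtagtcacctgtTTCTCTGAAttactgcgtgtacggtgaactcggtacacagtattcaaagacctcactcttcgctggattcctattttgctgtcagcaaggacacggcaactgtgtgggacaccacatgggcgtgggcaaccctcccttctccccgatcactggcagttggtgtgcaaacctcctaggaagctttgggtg
Nkg7: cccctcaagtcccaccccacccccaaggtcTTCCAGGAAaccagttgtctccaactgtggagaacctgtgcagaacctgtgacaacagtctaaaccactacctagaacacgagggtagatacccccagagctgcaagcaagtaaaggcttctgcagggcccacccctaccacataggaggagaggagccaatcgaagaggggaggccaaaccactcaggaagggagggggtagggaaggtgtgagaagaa
Of the members not called, 3 genes held TTCNNNGAA, among them *Bcl6* with 1 and 3 matches in its promoters. A promoter of *Clec12a*, a called member near the floor, held TTNCGNAA. *Cish* held 2 matches that begin at the start site used here and 11 bases after it. The other windows end at the start site and hold 1 match each before it. A match is a run of letters and not a measured binding site.

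Transcription factors of the neutrophil lineage moved in both directions. Of 20 tested, 4 rose and 8 fell. *Gfi1*, a repressor that granulocyte progenitors require, at chr5:107716657-107726036, had 1057, 1019 and 1027 in undifferentiated cells and 8342, 9562 and 9445 in GCSF 0h. The groups lay 8.81-fold apart with no overlap (3.14 ± 0.06, adjusted p = 1.18e-77). *Cebpe*, the factor of secondary granule genes, rose from 937, 857 and 848 to 2047, 2386 and 2329 (1.35 ± 0.10). *Cebpd* stood with them, and so did the clock gene *Per3* (1.44 ± 0.07).

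*Cebpa*, which specifies granulocyte-monocyte progenitors, had 20490.5, 18129.6 and 21435 against 28139, 28741 and 28124 (0.50 ± 0.13), under the fold threshold though every GCSF 0h value was higher. *Cebpb*, the factor of emergency granulopoiesis, fell from 11487, 9632 and 11469.7 to 5380.3, 5078 and 5126 (-1.06 ± 0.15). *Trib1*, a pseudokinase that promotes degradation of C/EBP-alpha protein, fell from 8777 ± 325 to 1415 ± 125.5 (-2.64 ± 0.09), and the retinoic acid receptor *Rara* fell (-1.74 ± 0.10). *Klf5* (-1.47 ± 0.09) and *Ddit3* (-1.68 ± 0.06) fell too.

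*Spi1* reads come from the fusion transgene and from whatever the null locus still transcribes, which gene-level values cannot separate. It had 10267, 9905 and 9799 in undifferentiated cells and 12483, 12811 and 12464 in GCSF 0h (0.33 ± 0.05, adjusted p = 1.08e-09, under the fold threshold). Reads on *Esr1*, the estrogen receptor gene, were 5034, 5141 and 5089.6 against 3917, 4119 and 3999 (-0.34 ± 0.06), also under the threshold. *Esr1* was looked up after values were seen, and the share of its reads that came from the fusion was not tested.

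Factors of stem and progenitor cells rose more often than they fell, with 10 higher and 5 lower of 24 tested. *Myb*, a factor of proliferating progenitors at chr10:21124935-21160984, had 1639.5, 1602 and 1638 in undifferentiated cells and 8315, 8921 and 9113 in GCSF 0h, 5.40-fold apart (2.43 ± 0.05, adjusted p = 2.46e-75). *Lyl1*, a basic helix-loop-helix factor, went from 149.2, 143 and 168.98 to 919.5, 923 and 954 (2.60 ± 0.09), and its partner *Lmo2* from 1131, 1069.9 and 1101 to 4485, 4419.7 and 4769 (2.05 ± 0.05). *Bcl11a* rose (2.06 ± 0.09). Groups of all 4 genes were apart. *Sox4* fell from 7598, 7212 and 8489 to 2698, 2324 and 2187 (-1.69 ± 0.11), as did *Ikzf2* (-1.20 ± 0.11) and *Mitf* (-0.78 ± 0.09). *Gata3* and *Zfpm1*, the FOG1 cofactor, fell from levels of at most 60.3 normalized counts (-2.93 ± 0.39 and -2.02 ± 0.49). *Gata2* stood at 18.3, 13.3 and 15.4 against 5.54, 8.85 and 8.39 (-0.97 ± 0.51, adjusted p = 0.0966) and was not called, although it was called lower with a pseudocount of 5 (-0.72), by limma in a fit of the 6 libraries alone (-0.97, adjusted p = 0.0366) and by edgeR (-0.98).

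Surface proteins of progenitors mostly fell, with 1 higher and 6 lower of 11 tested. *Cd93* fell from 23229 ± 439 to 3741 ± 270.3 (-2.64 ± 0.07), *Itga2b*, which encodes CD41, fell too (-2.24 ± 0.14), and so did the tetraspanin *Cd9* (-1.24 ± 0.06). *Prom1*, which encodes CD133, was the member that rose (0.99 ± 0.07). *Cd34*, often used to mark progenitors, was called lower at values about the floor of 3 reads, from 2.62, 2.05 and 3.55 in undifferentiated cells to 0 in each GCSF 0h library.

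Primary granule genes rose. Of 19 tested, 11 were higher and 2 lower, with a median of 0.70. *Mpo*, myeloperoxidase, had 3891, 3858 and 3575 in undifferentiated cells and 7632, 9516 and 9507 in GCSF 0h (1.23 ± 0.10, adjusted p = 1.55e-20). *Prtn3*, proteinase 3, had 37046, 37222 and 33199 against 70055, 75152 and 82669 (1.08 ± 0.07), and *Ctsg*, cathepsin G, had 37176, 37848 and 35434 against 55175, 61215 and 62676 (0.70 ± 0.04). Lysozyme 2, *Lyz2*, had the larger step, from 14397, 14347 and 13775 to 56239, 60716 and 63334 (2.08 ± 0.06), while its close copy *Lyz1* had no more than 5.23 in any library. Groups were apart for *Mpo*, *Prtn3*, *Ctsg* and *Lyz2*. *Lyz1* was called lower near the floor, a call lost without undifferentiated replicate 1 (-0.07). *Elane*, neutrophil elastase, was abundant in both groups, at 108842, 107315 and 108229 against 112802, 114156 and 122095 (0.10 ± 0.07, adjusted p = 0.173), and was not called. *Igsf6* (121.7, 163.7 and 176 to 1261, 1473 and 1486, 3.20 ± 0.07) and the serine protease *Prss57* (17.01, 12.3 and 10.6 to 82.2, 101.8 and 113, 2.82 ± 0.45) rose from low levels, as did *Nkg7* (2.02 ± 0.30). *Hsp90b1*, the chaperone of the endoplasmic reticulum that is on the list, fell (-0.74 ± 0.06).

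Secondary and tertiary granule genes went both ways, with 5 higher and 9 lower of 25 tested and a median of -0.30. *Camp*, the cathelicidin precursor, had 3919, 3913 and 3759 in undifferentiated cells and 6896, 6582 and 7432 in GCSF 0h (0.85 ± 0.08). *Lcn2*, lipocalin 2, had 14644, 14724 and 13189 against 20228, 18758 and 20638 (0.49 ± 0.08), under the fold threshold, and *Ltf*, lactoferrin, was close to the floor in both groups, at 5.23, 7.16 and 11.8 against 5.54, 5.31 and 1.86, values that overlap although limma called it lower (-0.82 ± 0.30). Without GCSF 0h replicate 3 or undifferentiated replicate 3 the call on *Ltf* was lost (-0.43 and -0.54), and DESeq2 did not call it either (-0.88). *Orm1*, an acute-phase protein, rose (1.69 ± 0.18), and *Chil1* rose from the floor to 16.6, 29.2 and 27.96. The metalloprotease *Adam8* fell from 38742, 37830.3 and 36191 to 5614, 4637 and 4025 (-2.99 ± 0.09). Annexin A1, *Anxa1*, fell (-1.71 ± 0.08), the histone-citrullinating enzyme *Padi4* (-1.68 ± 0.29) and arginase 2, *Arg2*, (-2.65 ± 0.47).

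The NADPH oxidase, which makes superoxide in phagocytes, had 4 of 7 members higher and none lower. The 3 not called included *Ncf1*, the p47phox subunit, with a mean ± SD of 4494 ± 247 and 5753 ± 128.6, and *Cyba*, the p22phox subunit, with 4877 ± 33.3 and 5349 ± 254. *Cybb*, the catalytic subunit gp91phox, had 1.31, 0 and 2.36 in undifferentiated cells, under the floor, and 27.7, 74.4 and 37.3 in GCSF 0h. *Ncf4*, the p40phox subunit, went from 9.16, 18.4 and 22.5 to 209.8, 179.7 and 199 (3.56 ± 0.19, adjusted p = 2.83e-34), the largest log2 fold change among named higher genes with a mean of at least 100. *Vav1* (1.22 ± 0.04) and *Rac2* (0.70 ± 0.07), which activate the complex, rose as well.

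Markers of mature neutrophils parted, with 7 higher and 12 lower of 30 tested. *S100a8* and *S100a9*, the calprotectin subunits, rose from 37825, 41495 and 45213 to 69235, 76593 and 83435 (0.88 ± 0.09) and from 50754, 54436 and 52808 to 83961, 88417 and 95908 (0.76 ± 0.07). *Ltb4r1*, the leukotriene B4 receptor, rose from 35.3, 43.98 and 35.5 to 137.7, 178 and 167.8 (2.05 ± 0.16). *Itgam*, the CD11b integrin chain, went the other way, from 590.1, 586 and 552 to 199, 174.4 and 149.1 (-1.73 ± 0.06). *Trem1* (-2.35 ± 0.05), the lectin *Clec4d* (-2.63 ± 0.09), the chemokine *Ccl6* (-2.09 ± 0.07), the selectin ligand *Selplg* (-1.49 ± 0.09) and *Stfa2* (-3.07 ± 0.12), of a family of near-identical stefins that can share reads, also fell.

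Monocyte and macrophage genes fell more often than they rose, at 10 lower and 5 higher of 20 tested. *Cd14*, the co-receptor of lipopolysaccharide, had 7859, 7810.3 and 7915 in undifferentiated cells and 836, 740.2 and 733 in GCSF 0h, 10.2-fold lower (-3.35 ± 0.06, adjusted p = 2.80e-83). *Lgals3* (-2.49 ± 0.08), *Cd68* (-1.72 ± 0.09) and the pore-forming *Mpeg1* (-1.40 ± 0.11) fell. The summed level of the markers was 143941 to 151724 in undifferentiated libraries and 66650.0 to 79605 in GCSF 0h libraries. Defining macrophage genes were near 0 in both groups: *Csf1r*, the M-CSF receptor, was at 10.5, 7.16 and 8.27 against 2.77, 0.885 and 1.86, *Irf8* at 2.62, 6.14 and 7.09 against 3.70, 2.66 and 1.86, and *Klf4* listed at 0. The monocyte receptors *Cx3cr1* (1.35 ± 0.07) and *Ccr2* (1.43 ± 0.15), the scavenger receptor *Cd36* (1.88 ± 0.27) and *F13a1* (1.19 ± 0.12) rose, and *Ly6c2* was not called (22475, 23237 and 20414 against 22661, 20000.3 and 23342).

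Of 14 factors linked to macrophage fate 10 fell and none rose. They include *Egr1*, *Egr2*, *Egr3* and *Nr4a1*, which are also growth-factor response genes and are described with these below, and *Irf4*, which fell from 18.3, 21.5 and 24.8 to 0.924, 0 and 1.86.

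Markers of other lineages came to few reads for eosinophil and lymphoid genes. Their sums were 9.16 to 10.2 and 2.77 to 4.43 for eosinophil markers, and 96.9 to 125.6 and 49.9 to 71.7 for lymphoid markers, in undifferentiated and GCSF 0h libraries. Megakaryocyte markers, which include genes that myeloid cells use too, summed to 63833 to 64467 and 19272 to 21645. Mast cell and basophil markers summed to 32076 to 33257 and 26250.2 to 28133, and the part of other cell types in any result was not tested. Mast cell and basophil markers had 3 higher and 7 lower of 16 tested, and *Hdc*, which makes histamine, rose from 54.96, 28.6 and 29.5 to 258, 396 and 332 (3.13 ± 0.21) while *Fcer1g* (-0.92 ± 0.11) and *Lat2* (-1.21 ± 0.37) fell. *Fcer1a* was listed at 0 in the 6 libraries and *Cpa3* in 5 of them. Of 7 eosinophil markers tested none was called. Megakaryocyte markers had 9 lower and none higher of 12 tested, with falls in *Plek* (-2.45 ± 0.07), *Itgb3* (-1.95 ± 0.31) and *Gp1bb* (-3.17 ± 0.58) while *Pf4* was listed at 0 in 5 of the 6 libraries. Of 6 erythroid markers tested 2 fell, among them *Ermap* (-3.77 ± 0.62). Lymphoid markers had 3 higher and 3 lower of 8 tested at low values, with *Il7r* falling from 61.5, 69.6 and 53.2 to 0.924, 7.08 and 0.932 and *Cd3e* listed at 0 throughout.

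The list of AP-1 and EGR factors, which holds many immediate-early genes, had the lowest median of the 37 lists. Many of these genes are transcribed within minutes of ERK activation. The list also holds genes such as *Nr4a1*, so not all members are AP-1 or EGR factors. Of its 24 members 22 fell and 1 rose, with a median of -2.47. *Fosb*, an AP-1 subunit at chr7:19302696-19310051, had 10493, 10285 and 10230.1 in undifferentiated cells and 41.6, 33.6 and 39.1 in GCSF 0h, 271-fold lower (-8.05 ± 0.18, adjusted p = 3.79e-70). *Egr3* had 816, 691 and 763 against 6.47, 4.43 and 6.52 (-6.81 ± 0.57), *Egr1* had 3007, 2852 and 2972 against 335, 253 and 207 (-3.50 ± 0.18), and *Atf3* had 2099, 2120.3 and 2132 against 60.99, 46.04 and 56.9 (-5.26 ± 0.15). In none of these did the groups come near each other. *Egr2* (-3.64 ± 0.22) and *Nr4a1* (-3.88 ± 0.35) fell, and *Batf*, an AP-1 factor of lymphoid and myeloid cells, was the member that rose (98.1, 102.3 and 86.3 to 216.2, 262 and 293, 1.41 ± 0.12).

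The list of ERK feedback genes fell as well, at 15 of 20 tested against 2 that rose (median -1.44). Besides ERK phosphatases it holds other phosphatases, regulators of G-protein signaling and transcription factors, so not all members inhibit ERK. *Dusp5*, a nuclear ERK phosphatase, had 4203, 3787 and 3904 in undifferentiated cells and 281, 232 and 240.4 in GCSF 0h (-3.98 ± 0.08). *Dusp1* (-3.73 ± 0.14), *Dusp10* (-4.45 ± 0.23) and *Rgs16* (-4.14 ± 0.43) fell too. *Dusp2* (26.2, 54.2 and 23.6 to 151, 128.4 and 143.5, 2.09 ± 0.42) and *Rgs2* (1.02 ± 0.08) rose.

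The levels of these genes in IL3 were not constant. In IL3-OHT cells the mean of *Fosb* was 18821 at 1h, 124 at 8h and 61.1 at 24h, and that of *Atf3* was 3277, 151.7 and 87.3. In GCSF-OHT cells *Fosb* was 4987, 55.96 and 34.4 at the same times. IL3-OHT cells at 8h and 24h thus held far less *Fosb* and *Atf3* than undifferentiated cells did. *Egr1* stayed higher in IL3, at 1471 against 77.5 at 8h and 629 against 92.8 at 24h. *Dusp5* lay between, at 976 against 479.6 at 24h. The cause of the level in the undifferentiated libraries was not tested.

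Chemokines, cytokines and adhesion proteins followed the same direction. Of 24 chemokines and inflammatory mediators 17 fell and 1 rose (median -1.56). *Cxcl3*, a neutrophil chemoattractant, had 793, 879.6 and 859 in undifferentiated cells and 36.97, 17.7 and 27.96 in GCSF 0h (-4.95 ± 0.25), *Cxcl2* had 338, 344 and 383 against 12.9, 12.4 and 14.9 (-4.63 ± 0.17), and *Ptgs2*, the inducible cyclooxygenase, had 547, 496 and 479.8 against 22.2, 31.9 and 19.6 (-4.34 ± 0.19). Groups were far apart for each. Of 24 integrins, selectins and adhesion genes 10 fell and 3 rose. *Itgax*, the CD11c chain, fell to 4.62, 11.5 and 5.59 from 87.7, 70.6 and 68.5 (-3.30 ± 0.23), while *Itgal*, the CD11a chain (1.96 ± 0.17), and *Itga4* (1.16 ± 0.12) rose.

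The BCL2 family had 5 higher and 4 lower of 20, and its lower share was near that over all genes tested. *Mcl1*, the short-lived survival protein of myeloid cells, fell from 32579, 31354 and 35348 to 8571, 8440.1 and 8401 (-1.96 ± 0.08). *Bcl2l1*, which encodes BCL-XL, fell (-0.74 ± 0.07) and *Bcl2* rose (309, 323 and 342 to 766, 761 and 695, 1.19 ± 0.10). Of the genes that promote death, *Bcl2l11*, which encodes BIM, fell from 4633, 4435 and 4773 to 1360.3, 1241 and 1301 (-1.83 ± 0.05), *Bbc3* fell (-0.82 ± 0.15), and *Bmf* (1.69 ± 0.12) and *Bid* (1.24 ± 0.07) rose. *Birc5*, which is both an inhibitor of apoptosis and a mitotic gene, rose (1.58 ± 0.07).

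Cell-cycle genes rose. Of 40 DNA replication genes 36 rose and none fell (median 1.39), and of 30 mitosis genes 29 rose and 1 fell (median 1.42). *Mki67*, the proliferation marker, had 3634, 3646 and 3356 in undifferentiated cells and 10785, 12166 and 11656 in GCSF 0h (1.70 ± 0.09, adjusted p = 7.04e-37). *Espl1*, the separase of sister chromatids, had 373, 404 and 324 against 1619, 1757 and 1776 (2.23 ± 0.08), and *Prim1*, a primase subunit, had 364, 429.6 and 425 against 1559, 1784 and 1666 (2.04 ± 0.08). No undifferentiated library reached a GCSF 0h library in these 3 genes. *Tyms* (1.91 ± 0.10), *Rrm2* (1.80 ± 0.06), *Pole* (1.80 ± 0.08), *Kif11* (1.86 ± 0.08), *Nuf2* (1.86 ± 0.08) and *Ttk* (1.76 ± 0.12) rose by similar amounts. The replication genes not called were *Gins4*, *Rfc3*, *Pcna* and *Orc6*, each with a positive log2 fold change (0.45, 0.44, 0.34 and 0.32), and the mitosis gene that fell was *Pttg1*, securin (712, 708 and 705 to 400.2, 470.1 and 486, -0.65 ± 0.08, not called at -0.57 without GCSF 0h replicate 1). Summed over the list, replication genes came to 32282 to 33769.7 in undifferentiated libraries and 77818 to 84599 in GCSF 0h libraries.

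Regulators of G1 rose more often than they fell. Of 23 tested 13 rose and 3 fell. *E2f2* had 334, 262 and 255 in undifferentiated cells and 1329.8, 1593 and 1501 in GCSF 0h (2.38 ± 0.08), and *Cdk6*, the kinase of D-type cyclins, had 6069, 6079 and 6193 against 17512, 18929 and 18740.0 (1.59 ± 0.07). *E2f8* (1.54 ± 0.08) rose. Of the inhibitors, *Cdkn2a* (0.83 ± 0.15), *Cdkn1b*, p27 (1.08 ± 0.08), *Cdkn2c*, p18 (1.72 ± 0.10), and *Cdkn2d* (1.28 ± 0.08) rose. *Cdkn1a*, p21, fell from 14849.7, 14378 and 14612 to 8409, 7438 and 7446 (-0.91 ± 0.07), as did *Cdkn2b*, p15 (-2.37 ± 0.40). *Ccnd2*, which fell, was named above.

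Glycolysis genes fell at 16 of 25 and rose at 2 (median -0.91). *Slc2a1*, the glucose transporter GLUT1, had 15582, 15493 and 15096 in undifferentiated cells and 1219, 1147 and 1064 in GCSF 0h, 13.5-fold lower (-3.75 ± 0.16, adjusted p = 5.10e-43). *Gapdh*, often used as a reference gene, had 243799, 249166 and 254887 against 83259, 72197 and 74552 (-1.70 ± 0.09), and *Pgk1* had 71445, 75808 and 78724 against 21392, 17367 and 16826 (-2.03 ± 0.11). The groups did not overlap in any of these. *Aldoc* fell (-2.63 ± 0.17), and *Pfkfb4* (1.07 ± 0.09) and the lactate exporter *Slc16a3* (1.06 ± 0.20) rose. These levels also changed within IL3, where the mean of *Slc2a1* was 19538 at 1h, 2221 at 4h and 16042 at 24h after OHT.

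Targets of ATF4, the factor of amino acid shortage and oxidative stress, fell at 14 of 24 and rose at 2. *Slc7a11*, the cystine transporter, had 1132, 1230.5 and 1219.5 in undifferentiated cells and 85.9, 72.6 and 93.2 in GCSF 0h (-3.82 ± 0.21). *Trib3* (-2.34 ± 0.10) and *Pycr1* (-1.69 ± 0.10) fell, and *Shmt2* (0.84 ± 0.06) and *Psph* (0.75 ± 0.09) rose. Of 26 genes of metal and glutathione handling 12 fell and 3 rose. *Hmox1*, heme oxygenase 1, had 10622, 11032 and 10357 against 371, 409.9 and 351, 28.3-fold lower (-4.82 ± 0.10, adjusted p = 7.60e-72). *Mt2*, a metallothionein (-2.38 ± 0.13), the thioredoxin reductase *Txnrd1* (-1.80 ± 0.05) and the copper exporter *Atp7a* (-1.67 ± 0.11) fell. *Gstm1* (1.01 ± 0.07), *Gsr* (0.76 ± 0.05) and the iron exporter *Slc40a1* (0.69 ± 0.05) rose.

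Cholesterol synthesis and uptake genes fell at 11 of 24 and rose at 1, with *Mvd* (-1.63 ± 0.10), *Msmo1* (-1.44 ± 0.09), *Cyp51* (-1.18 ± 0.09) and *Sqle* (-1.08 ± 0.07) lower and *Ebp* (0.84 ± 0.09) higher. Lysosomal hydrolases fell at 9 of 27 and rose at 2, led by *Ctsl*, cathepsin L (6302, 6487 and 6489 to 1389.9, 1316 and 1102, -2.35 ± 0.06), with *Ctsh* (-1.61 ± 0.14), *Naglu* (-1.42 ± 0.09) and *Glb1* (-1.28 ± 0.06) lower and *Gusb* (0.99 ± 0.06) and *Tfeb* (0.70 ± 0.13) higher. Chaperones of the endoplasmic reticulum fell at 6 of 22 and rose at none. That is 27.3% called, against 33.7% called and 20.7% called lower over all genes tested. *Hspa5*, BiP, had 47878, 49849 and 48471 against 21349, 20084 and 21213 (-1.22 ± 0.04), and *P4hb* (-1.32 ± 0.05), *Dnajb9* (-1.54 ± 0.09) and *Pdia4* (-0.87 ± 0.04) fell. Heat shock genes fell at 5 of 13 and rose at none, among them the co-chaperone *Bag3* (-2.05 ± 0.10) and the genes *Hspa1a* (-1.50 ± 0.22) and *Hspa1b* (-1.03 ± 0.15), near-identical copies that can share reads.

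Ribosome biogenesis, tRNA charging and mitochondrial genes had shares of calls below those over all genes tested. Of 34 ribosome biogenesis factors 2 rose and 3 fell (median 0.04), all within 0.74 in size, namely *Wdr12* (0.68 ± 0.10), *Dkc1* (0.58 ± 0.09), *Npm1* (-0.59 ± 0.07), *Rrp12* (-0.73 ± 0.08) and *Tsr1* (-0.74 ± 0.07). The calls on *Dkc1* and *Npm1* stood at the fold threshold and were lost without several single libraries, at 0.53 without undifferentiated replicate 1 for *Dkc1* and -0.56 without undifferentiated replicate 2 for *Npm1*. Of 19 aminoacyl-tRNA synthetases 2 rose and 3 fell, with *Vars* (1.00 ± 0.08) and *Sars* (-0.97 ± 0.05) at the ends. Of 13 mitochondrially encoded genes 1 rose, *mt-Atp8* (0.76 ± 0.29), which overlaps *mt-Atp6*, and none fell. Without undifferentiated replicate 3 *mt-Atp8* was not called (0.44).

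Interferon-stimulated genes rose at 15 of 33 and fell at 1 (median 0.62). *Ifit2* had 194, 208.7 and 281 in undifferentiated cells and 1024, 1186 and 1199 in GCSF 0h (2.33 ± 0.10), *Irgm1*, an immunity-related GTPase, had 34.02, 34.8 and 42.5 against 233, 267 and 267 (2.76 ± 0.15), and the RNA sensor *Ifih1* had 32.7, 51.1 and 41.4 against 141.4, 174.4 and 151.9 (1.89 ± 0.20). *Ifit3* rose from no more than 5.11 to 22.2, 21.2 and 18.6. *Gbp2* was the member that fell (-1.15 ± 0.20). *Irf7*, the master factor of the interferon response, was not called (79.2 ± 5.09 and 58.5 ± 10.5, mean ± SD). Antigen presentation genes had 5 higher and 3 lower of 15, and their lower share was near that over all genes tested. The peptidase *Erap1* (1.14 ± 0.10) and the immunoproteasome and transporter genes *Psmb10* (0.99 ± 0.11), *Psmb8* (0.63 ± 0.07) and *Tap1* (0.73 ± 0.07) rose, while *B2m* (-0.69 ± 0.05), *H2-DMa* (-1.90 ± 0.34) and *H2-DMb1* (-0.81 ± 0.19) fell. Under upper-quartile scaling *Psmb8* was not called (0.56). Of 16 leukotriene and prostaglandin enzymes 3 rose and 3 fell, or 37.5% called against 33.7% over all genes tested. *Lta4h*, which makes leukotriene B4, rose from 2114, 2045 and 2157 to 5144, 6414 and 6129.6 (1.48 ± 0.04), beside *Ptgs1* (0.90 ± 0.05) and *Ggt5* (1.83 ± 0.27).

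Among genes with a mean of at least 100 in the higher group, those with the largest changes included several outside these lists. Of the 12 highest, *Ncf4*, *Igsf6*, *Gfi1*, *Hdc* and *Irgm1* were described above. *Lin28a*, an inhibitor of let-7 maturation, had 10.5, 17.4 and 4.73 in undifferentiated cells and 105.4, 124 and 109.04 in GCSF 0h (3.41 ± 0.24). *Akap12*, a scaffold of protein kinase A, had 488, 401 and 399 against 4203, 2589 and 2692 (2.85 ± 0.12), and *Fut7*, which builds selectin ligands, had 41.9, 31.7 and 46.1 against 351, 291 and 329 (3.00 ± 0.13). The apolipoprotein genes *Apoc4* (3.27 ± 0.37) and *Apoc2* (2.99 ± 0.24) lie next to each other on chromosome 7 and a read-through transcript spans both. *Ifi47* (3.05 ± 0.25), an interferon-inducible GTPase, and *Slfn9* (2.68 ± 0.16) complete the 12.

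Of the 12 lowest, *Fosb*, *Egr3* and *Atf3* were described above. *Fgf23*, a hormone of phosphate balance made mainly in bone, had 635, 625 and 549 against 10.2, 10.6 and 8.39 (-5.82 ± 0.45), and *Tm4sf19* had 493, 462 and 439.6 against 12.01, 6.20 and 11.2 (-5.48 ± 0.27). *Dbn1*, drebrin, was at 357, 339.6 and 337 and then at 0, 3.54 and 3.73, near or under the floor. *Iqcn*, *Apol8*, *Igsf9* and *Rnf183* likewise ended at no more than 7.08 normalized counts, with fitted values between -6.40 and -5.44. A fitted value of a gene that ends near the floor depends on the pseudocount.

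The second comparison asked whether the same genes differed in libraries that the first did not use. Against IL3-OHT 1h, GCSF-OHT 1h had 5365 DEGs (30.8%), with 1935 higher (11.1%) and 3430 lower (19.7%). By the study's methods, cells for the IL3 course were plated in IL3 when the pre-treatment began, so both conditions at 1h had been in plates for that time. The comparisons share no library, though they share the line and the pre-treatment, and OHT was at 200 nM in IL3 and 100 nM in GCSF. Of the genes higher at 0h, 1604 were also higher at 1h, which is 70.9% of the 0h list and 82.9% of the 1h list. Of the genes lower at 0h, 2669 were also lower at 1h, 74.1% of the 0h list and 77.8% of the 1h list. 6 genes were called in opposite directions. *Csf3r* had a log2 fold change of 2.15 ± 0.06 at 1h, *Gfi1* 2.85 ± 0.06, *Myb* 2.22 ± 0.05, *Socs1* -3.96 ± 0.18 and *Mki67* 1.42 ± 0.09. All 36 replication genes and 28 of the 29 mitosis genes that were higher at 0h were higher again, and so were 10 of the 11 primary granule genes.

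**Figure D4:**
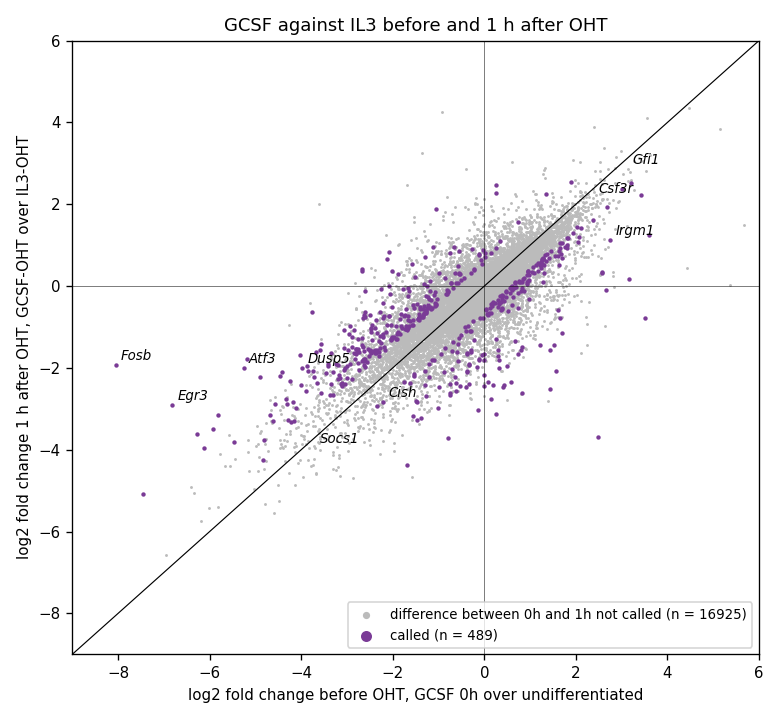
Log2 fold change of GCSF over IL3 before OHT (horizontal axis) and 1 h after OHT (vertical axis) for each gene tested, with the line of equal values. Purple points are the 489 genes whose difference itself changed, of which *Fosb*, *Egr3*, *Atf3* and *Dusp5* lie above the line and *Cish* below it.

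A test of the change in the difference, over both time points in the same fit, called 489 genes (2.81%). In 353 of them, or 72.2%, the difference was smaller in size at 1h than at 0h. The same share over all genes tested was not computed, so 72.2% has no background beside it. *Fosb* had the largest change among the genes named, with 17926, 19210.1 and 19327 normalized counts in IL3-OHT 1h and 4402, 5434 and 5124 in GCSF-OHT 1h. Both conditions were above their 0h values, and the log2 fold change was -1.92 ± 0.18, so the difference had changed by 6.13 ± 0.26. *Cish* had 6865, 6823 and 7392 and 1017, 1045 and 920.2 at 1h, with a wider difference than at 0h (-0.62 ± 0.11). Of the lower genes at 0h, 210 were called lower again at 1h with a different size.

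Later time points offered a description of how long the order of GCSF and IL3 values seen at 0h stood. At the 25 time points after OHT that were sampled in both conditions, leaving out 96h and 144h, the groups' values were compared for overlap, with no test. Genes higher at 0h were above IL3 without overlap at a median of 20 of the 25 time points, against a median of 2 over all genes tested. Genes lower at 0h were below at a median of 13, against 4 over all genes. 1196 higher genes (52.9%) and 1206 lower genes (33.5%) held at 20 or more time points, against 11.3% of all genes in either direction. *Csf3r* held at 25 of 25, *Gfi1* at 25, *Myb* at 25, *Mpo* at 25, *Mki67* at 25, *Cish* at 25, *Socs1* at 25 and *Egr1* at 25. *Egr3* held at 12 and *Cebpd* at 16. *Slc7a11* was below IL3 without overlap at 8 time points and above it at 13. The cells of these later libraries carried active PU.1, so the values do not isolate the pre-treatment.

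**Figure D5:**
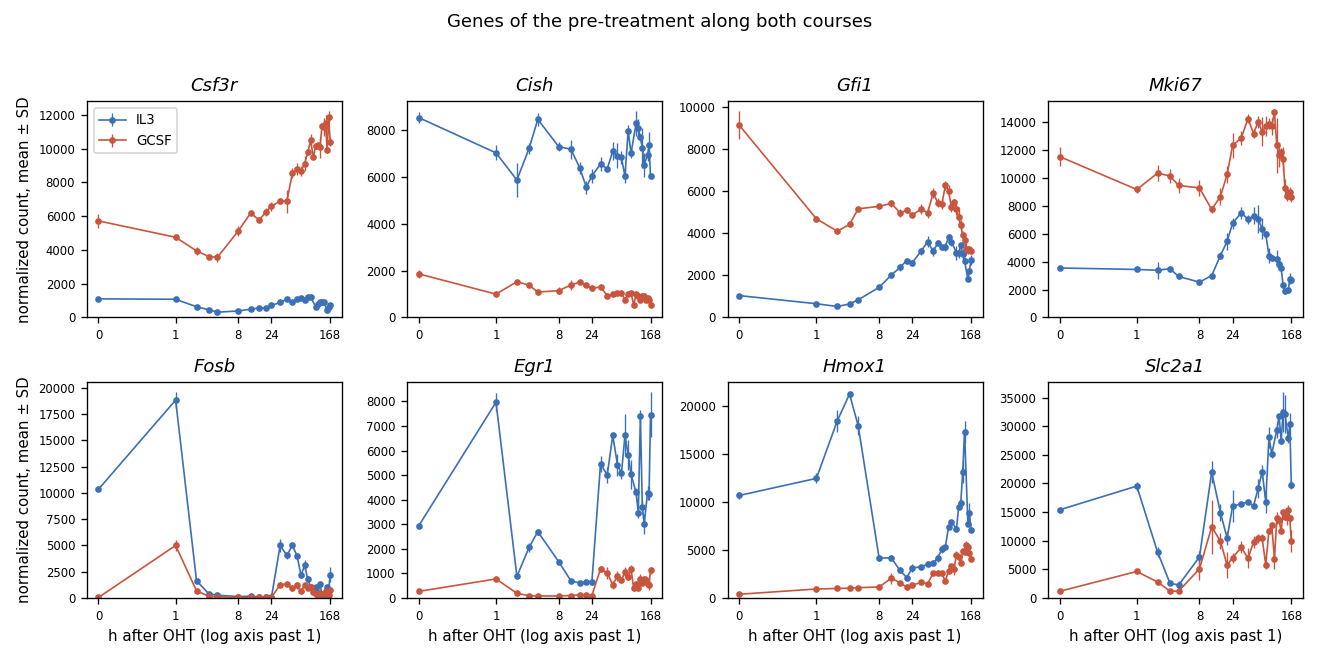
Mean normalized count (± SD over the libraries of a time point) of 8 genes along both courses, IL3 in blue and GCSF in red, from 0h (before OHT) to 168h on a log time axis past 1 h, without the 96h and 144h libraries in IL3. *Csf3r* and *Cish* kept their order at each shared time point, while *Fosb* in IL3 fell from 18821 at 1h to 61.1 at 24h.

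Within the GCSF course several levels went on changing after the pre-treatment. *Csf3r* went from a mean of 5718 at 0h to 3561 at 4h, its lowest, and was at 10424 at 168h. *Cybb* went from 46.5 to 1531 and *Itgam* from 174.1 to 4154. *Gfi1* went from 9116 at 0h to 4679 at 1h and was at 3170 at 168h. In IL3 it also fell at first, from 1034 at 0h to 648 at 1h, and was at 2718 at 168h. *Itgam*, below IL3 at 0h, stayed below it at 25 of the 25 later time points.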

How the data were processed

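RNA of PUER cells was sequenced in 165 libraries, and 12 of them are compared here. The authors quantified reads with Salmon against mouse transcripts (GRCm38/mm10) and deposited a table of 36255 genes in which each read count is divided by the library's DESeq2 size factor. These deposited values are therefore a signal per gene and not raw counts. How transcripts were summed to genes, and the strand setting, are not given in the sources used here, so overlapping genes and near-identical copies can share reads. In the 12 libraries 100% of values were whole multiples of what 1 read is worth (relative tolerance 1e-06), and the recovered reads gave the depth. Values were tested as log2(normalized count + 1) with limma 3.58.1 (R 4.3.3), 1 mean per condition and time point, over 159 libraries in 54 groups. The IL3-OHT libraries at 96h and 144h were left out, as the authors did. Genes that reached 5 in any library were kept, and Benjamini-Hochberg adjustment was over 17414 genes in each comparison. Where nothing ties replicates to separate cultures, p-values measure only the spread between replicate samples, pooled over the 159 libraries.

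The choice of this contrast, and so its members, the 37 gene lists and the naming rule were made with earlier results of these data known. Genes were named if they were among the 12 called genes with the largest change in each direction (mean of at least 100 in the higher group, no overlap), or among up to 4 called members of a list in each direction with the largest change and a mean of at least 20, or on a short list of key genes. *Cd34*, *Cdkn1b*, *Cdkn2a*, *Cdkn2d*, *Clec12a*, *Cyba*, *Esr1*, *Gins4*, *Irf7*, *Lyz1*, *Ncf1*, *Orc6*, *Pcna*, *Ptprc*, *Rfc3*, *mt-Atp6* and the genes listed at 0 were named after their values were seen. Alternatives were other pseudocounts and filters, upper-quartile scaling, fits of only the libraries compared, a replicate block, leaving out each replicate, and edgeR 4.0.16 and DESeq2 1.42.0 on recovered reads, where edgeR called 4994 genes at 0h. Promoters came from RefSeq (GRCm38.p6), gene positions from GENCODE on GRCm38. Some genes that the naming rule reached are not reported here.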

Additional observations from a re-analysis of the deposited data

Results flagged for a closer look

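Of the genes named, 40 had a cytokine difference that itself changed between 0h and 1h after OHT (limma interaction, adjusted p under 0.05 and a change over 0.58 in log2). The change is the log2 difference of GCSF and IL3 at 1h less that at 0h, so a positive value is a move toward a higher level in GCSF. In 31 of the 40 genes it was positive, in 9 negative, and in 38 the difference was smaller in size at 1h. Over all genes tested 489, or 2.81%, passed the same test, of which 275 were positive and 353 (72.2%) smaller in size at 1h. The share with a smaller difference among genes that did not pass was not computed. Most of the genes named were chosen for a large difference at 0h, which favours a smaller one at 1h. No cause was tested, and OHT differed in dose between the conditions at 1h.

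In the lists of AP-1 and EGR factors and of ERK feedback genes the changes were 6.13 ± 0.26 for *Fosb*, 3.91 ± 0.81 for *Egr3*, 3.27 ± 0.22 for *Atf3* and 1.92 ± 0.49 for *Nr4a1*. They were 2.26 ± 0.33 for *Dusp10*, 1.98 ± 0.12 for *Dusp5* and 1.50 ± 0.19 for *Dusp1*. Among the lowest genes at 0h they were 2.66 ± 0.79 for *Apol8* and 1.65 ± 0.38 for *Tm4sf19*. Inflammatory and monocyte genes moved by 1.71 ± 0.08 for *Cd14*, 1.58 ± 0.27 for *Ptgs2*, 1.34 ± 0.25 for *Cxcl2*, 0.85 ± 0.19 for *Osm*, 0.93 ± 0.12 for *Lgals3*, 0.90 ± 0.10 for *Cx3cr1*, 0.75 ± 0.07 for *Trem1* and 0.69 ± 0.13 for *Clec4d*. Of these *Cx3cr1* had a wider difference at 1h than at 0h.

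Metabolic, stress and lysosomal genes moved by 1.67 ± 0.23 for *Slc2a1*, 0.84 ± 0.24 for *Aldoc*, 1.07 ± 0.15 for *Hmox1*, 0.74 ± 0.19 for *Mt2*, 0.74 ± 0.14 for *Bag3* and 0.77 ± 0.09 for *Ctsl*. Survival genes moved by 1.15 ± 0.07 for *Bcl2l11*, 0.72 ± 0.12 for *Mcl1* and -0.79 ± 0.09 for *Bid*. Granule, platelet and factor genes moved by 1.15 ± 0.11 for *Anxa1*, 1.05 ± 0.12 for *Adam8*, 1.12 ± 0.10 for *Plek*, 1.03 ± 0.14 for *Rara*, 0.81 ± 0.12 for *Trib1* and 0.62 ± 0.09 for *Ifngr2*.

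The other changes were negative. They were -1.62 ± 0.21 for *Irgm1*, -1.18 ± 0.34 for *Lin28a*, -0.97 ± 0.13 for *Bcl11a*, -0.75 ± 0.23 for *Slfn9*, -0.74 ± 0.14 for *Cebpe*, -0.69 ± 0.10 for *Igsf6*, -0.62 ± 0.11 for *Cish* and -0.62 ± 0.19 for *Fut7*. *Cish* was the one of these whose difference grew in size, and the rest were nearer to IL3 at 1h than at 0h.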

How the results depend on the processing

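Under each alternative every count of called genes stayed within 1.5 times its value above. Genes higher at 0h ranged from 2000 to 2317 and genes lower at 0h from 2542 (mean of at least 10, fewer genes tested) to 3918 (upper-quartile scaling). On recovered reads edgeR called 2677 genes lower and DESeq2 2848. Upper-quartile scaling moved the median log2 fold change of all genes from -0.09 to -0.15, and the share of calls that were higher from 38.6% to 33.8%. That share was above 38.6% under other settings, at 45.3% with a mean of at least 10, 46.4% with edgeR (median 0.005) and 44.7% with DESeq2 (median -0.14). Leaving out 1 replicate at a time gave 2194 to 2255 higher and 3348 to 3526 lower genes at 0h, 1866 to 1930 higher and 3201 to 3264 lower at 1h, 4122 to 4208 shared genes and 431 to 535 genes with a changed difference.

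The groups share replicate numbers, but libraries with the same number did not deviate together (r of their deviations 0.03, 0.00 and -0.04 over genes, within the -0.06 to 0.06 of all 9 pairs). The numbers were therefore not used as pairs in the main fit. A small effect shared by same-numbered samples could go unseen, since noise in genes with few reads enters these values. A fit of only the libraries compared, with a replicate block, gave 2213 higher and 3333 lower genes at 0h, 1851 and 3064 at 1h, 4092 shared genes and 431 with a changed difference. The same fit without the block gave 2218 and 3374, 1891 and 3197, 4155 and 458.

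Of the 230 genes named, 17 changed their side of the thresholds or their sign under some alternative, and the others did not. *Ly6c2*, not called, changed sign to 0.039 under edgeR and 0.047 under DESeq2, and ranged from -0.058 to 0.063 as single replicates were left out. Without 1 library (named is the one that moved the value most), calls were lost for *Flt3* (-1.31, GCSF 0h replicate 3), *Ltf* (-0.43, GCSF 0h replicate 3), *Lyz1* (-0.07, undifferentiated replicate 1), *Stat4* (1.00, undifferentiated replicate 1), *mt-Atp8* (0.44, undifferentiated replicate 3), *Pttg1* (-0.57, GCSF 0h replicate 1), *Npm1* (-0.56, undifferentiated replicate 2) and *Dkc1* (0.53, undifferentiated replicate 1), and *Irf8* was called lower (-1.05, undifferentiated replicate 1). DESeq2 did not call *Csf1r*, *Gp1bb*, *Cd34*, *Clec12a*, *Ptprc*, *Ltf*, *Lyz1* or *Npm1*, and edgeR did not call *Npm1* (-0.56). *Gata2* was called lower by edgeR (-0.98), with a pseudocount of 5 (-0.72) and in the fit of the compared libraries without the block (-0.97). That fit lost *Ltf* and *Lyz1* with and without the block. A pseudocount of 5 lost *Dkc1*, *Ltf* and *Lyz1*, no filter lost *Lyz1*, and upper-quartile scaling lost *Dkc1* and *Psmb8* (0.56). The cause was not tested. Depth limits genes near the floor of 3 reads, whose fold changes depend on the pseudocount, and 7 named genes had no edgeR value after its filter.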
